A study of Mus musculus with 5 samples.

Results

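Breakdown of the branched-chain amino acids leucine, isoleucine and valine was followed through 10 genes, Bcat1, Bcat2, Bckdha, Bckdhb, Dbt, Ivd, Echs1, Hibch, Hibadh and Aldh6a1, taken by name as enzymes of the pathway from the 55484 genes listed. The cells were GL261, a mouse glioma line, and total RNA was taken 24 h after a dose given in the labels as 1 uM of either salt. The sodium propionate group held 2 libraries, numbered 2 and 3, and the sodium chloride group held 3, numbered 1 to 3. Sodium chloride supplies the same cation without the short-chain fatty acid propionate, which gut bacteria release. All 5 libraries come from 1 cell line in culture, and nothing in the labels says that the cultures were separate. The p-values therefore measure only how far these libraries spread, which may be technical.

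The pathway starts with an aminotransferase, Bcat1 in the cytosol or Bcat2 in mitochondria, which passes the amino group to 2-oxoglutarate and so makes glutamate. The resulting keto acids are decarboxylated in mitochondria by the branched-chain ketoacid dehydrogenase, a complex built of Bckdha, Bckdhb, Dbt and the shared subunit Dld, and the routes then separate by amino acid. Valine and isoleucine yield propionyl-CoA, which is also the activated form of propionate itself, and leucine yields acetyl-CoA and acetoacetate. In human gliomas, BCAT1 is known for its expression in tumours with wild-type isocitrate dehydrogenase.

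Of the 10 genes, all were expressed above the minimum for testing, and none passed the test between propionate and chloride libraries. The largest difference was that of Bcat1, which was lower in propionate libraries and missed the threshold. Levels are in TPM, summed over a gene's transcripts, a unit that corrects for transcript length and sums to the same total in every library, so that genes can be compared within a library. Changes are differences of mean log2(TPM + 1), propionate minus chloride, tested with limma over 13877 genes at a Benjamini-Hochberg adjusted p under 0.05.

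The libraries were of like depth, with 7.44 and 7.23 Gb of aligned bases in propionate libraries and 7.63, 7.37 and 7.19 Gb in chloride libraries. Small RNAs took 46.1 and 40.6% of TPM in propionate libraries 2 and 3, against 42.1, 44.1 and 44.9% in chloride libraries. The propionate libraries therefore held the highest and the lowest small RNA share of the 5. Of the 10 members, 8 read higher in propionate library 3 than in propionate library 2. The share of all tested genes that did so was not counted. Their median change against chloride was 0.03 without propionate library 2 and −0.08 without propionate library 3, so such a shift was not particular to the members. The part of the small RNA share in each result was not tested other than by the scalings given with Bcat1. The line's label was checked against marker lists: 6 of 7 glioma or neural genes were at 1 TPM or more, with Olig2 below that. Of the microglia and macrophage list, Cd68 alone passed 1 TPM, the other 5 reached at most 0.306 TPM, and Cd68 gave nearly all of the summed level of 10.4 and 12.2 TPM in propionate libraries, against 7.94, 7.39 and 6.58 TPM in chloride libraries. The defining leukocyte gene Ptprc was at 0 in propionate library 2 and at 0.0457 TPM in propionate library 3, and Itgam was listed at 0 in all libraries. Of the liver list, summed TPM was 0.0722 and 0 in propionate libraries and 3.76, 0 and 0.0203 in chloride libraries, and Alb gave 3.02 TPM of the 3.76.

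Because the results below turn partly on which start of a gene was read, the windows around both RefSeq starts of Bcat1 and of Aldh6a1 are given here, 250 bases before to 50 bases after each start. They are from GRCm38.p6, minus strand, 5′ to 3′, with CG pairs in capitals.

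Bcat1 distal start, chr6:145076108-145076407: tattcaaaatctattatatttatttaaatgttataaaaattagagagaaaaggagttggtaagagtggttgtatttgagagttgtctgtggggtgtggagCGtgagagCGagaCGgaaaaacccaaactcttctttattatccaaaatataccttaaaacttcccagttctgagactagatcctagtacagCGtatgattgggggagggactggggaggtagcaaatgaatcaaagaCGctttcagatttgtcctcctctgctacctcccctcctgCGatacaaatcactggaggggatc

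Bcat1 proximal start, chr6:145048763-145049062: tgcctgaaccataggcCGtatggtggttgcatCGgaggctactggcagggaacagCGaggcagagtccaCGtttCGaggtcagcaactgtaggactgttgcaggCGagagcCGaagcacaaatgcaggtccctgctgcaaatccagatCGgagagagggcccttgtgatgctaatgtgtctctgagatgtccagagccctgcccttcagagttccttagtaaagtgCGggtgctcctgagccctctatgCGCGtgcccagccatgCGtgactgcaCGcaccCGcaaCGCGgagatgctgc

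Aldh6a1 upstream start, chr12:84450975-84451274: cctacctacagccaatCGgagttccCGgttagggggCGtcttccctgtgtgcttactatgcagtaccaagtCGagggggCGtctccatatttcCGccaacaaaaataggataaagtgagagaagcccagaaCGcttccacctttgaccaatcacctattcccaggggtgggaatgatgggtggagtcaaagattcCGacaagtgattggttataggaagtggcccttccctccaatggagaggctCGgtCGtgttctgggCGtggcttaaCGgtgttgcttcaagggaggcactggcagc

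Aldh6a1 downstream start, chr12:84448268-84448567: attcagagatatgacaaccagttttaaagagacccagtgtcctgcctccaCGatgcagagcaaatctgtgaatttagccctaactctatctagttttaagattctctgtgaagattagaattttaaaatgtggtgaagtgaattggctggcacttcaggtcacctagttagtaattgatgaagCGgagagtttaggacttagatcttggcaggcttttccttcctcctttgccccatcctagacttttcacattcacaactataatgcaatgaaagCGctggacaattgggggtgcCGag

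The distal Bcat1 window held 6 CG pairs and the proximal one 16, while the upstream Aldh6a1 window held 12 and the downstream one 4. Over all 32851 mouse windows of this length in the table the median was 7, with quartiles of 3 and 20. The letters TATAAA, searched on both strands, occurred once, starting 219 bases before the distal Bcat1 start, and 13.6% of all windows held them. The letters CACGTG (7.15% of all windows) and GGGCGG (35.7%) were in none of these 4 windows. Such matches describe letters only. RefSeq windows were found for 9 of the 10 genes, 13 windows in all.

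Across the pathway, expression spanned 8.33-fold between the highest and the lowest gene. By mean TPM over the 5 libraries the order was Hibadh (54.4), Echs1 (49.6), Bckdha (29.4), Hibch (20.8), Ivd (19.9), Bcat1 (18.0), Aldh6a1 (14.2), Dbt (11.7), Bcat2 (8.05) and Bckdhb (6.52). Of the 9 neighbouring pairs in this order, 6 had overlapping ranges over libraries. The pairs that did not overlap were Echs1 over Bckdha, Aldh6a1 over Dbt and Dbt over Bcat2. The cytosolic aminotransferase gene was thus above the mitochondrial one in every library, and valine enzymes stood at both the top and the middle of the order.

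**Figure D1:**
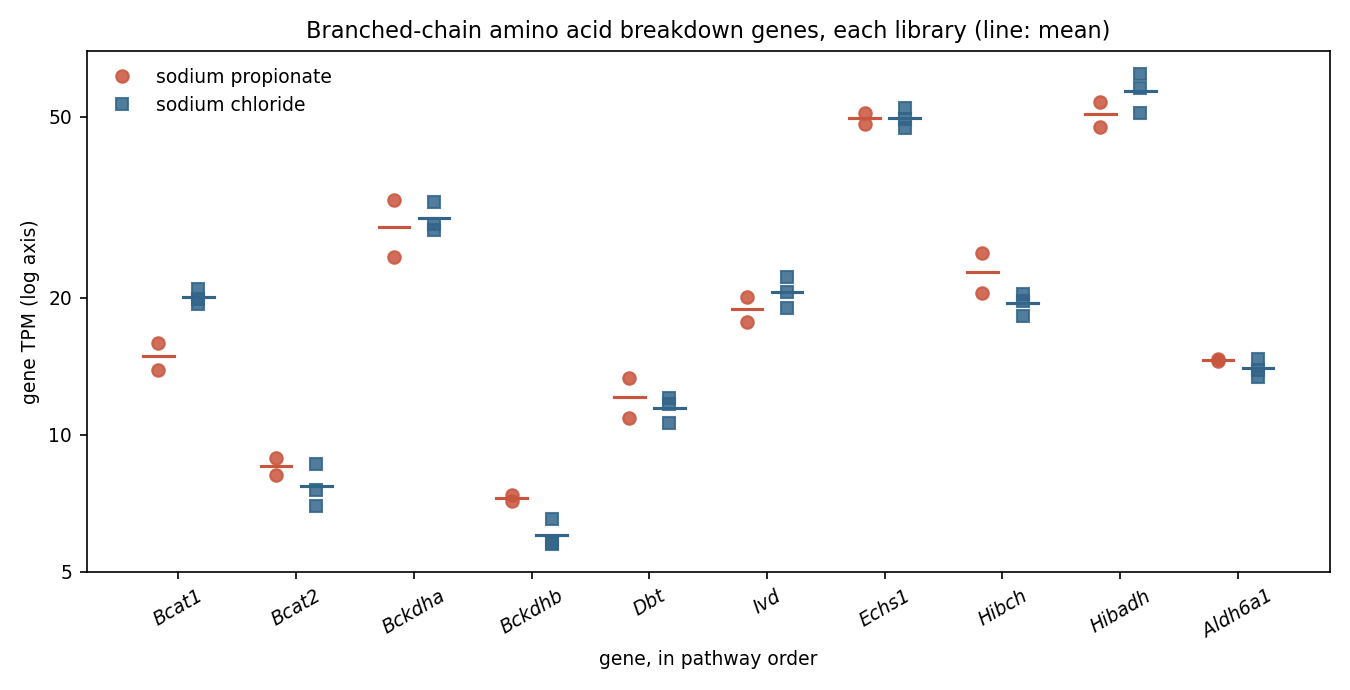
Gene TPM (log axis) of the 10 genes in pathway order, with propionate libraries as circles, chloride libraries as squares and lines at the group means. The groups do not overlap for Bcat1, Bckdhb and Hibch, and Hibch only just.

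No member was called in either direction, 0 of 10, against 1.8% of the 13877 genes tested (182 or 1.31% higher, 68 or 0.49% lower). The changes lay on both sides of 0, with 5 above and 5 below and a median of 0.03, against a median of −0.03 over all tested genes. By unadjusted p under 0.05, 1 member was lower and none higher, where 16.8% of all genes passed. The propionate and chloride libraries did not overlap for 3 members, 2 higher and 1 lower. Over all genes 34.6% were apart in this way, 14.8% higher and 19.7% lower, so 3 of 10 is near the background. The 95% intervals of the 10 changes ran from −0.65 at the lowest to 0.50 at the highest, and a missed threshold does not show that a gene's level was the same in both groups.

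Bcat1 (ENSMUSG00000030268), the cytosolic aminotransferase, lies on chr6:144993835-145076184 of mm10, minus strand. It had 13.9 and 15.9 TPM in propionate libraries, against 20.9, 19.4 and 19.9 TPM in chloride libraries. Both propionate libraries were below all 3 chloride libraries. In bulk RNA, fewer cells that express a gene and less of its RNA per cell cannot be told apart. The means were 14.9 ± 1.44 TPM (SD, n = 2) with propionate and 20.1 ± 0.786 TPM (SD, n = 3) with chloride, a ratio of 0.742. The limma change was −0.41 ± 0.10 (SE; 95% interval −0.65 to −0.17), with an adjusted p of 0.0989. The size hardly moved with the scaling of the libraries, but the call did. It passed with median-of-ratios scaling (−0.39, adjusted p = 0.0409), where 1.13% of genes were called lower. It passed with TPM rescaled over protein-coding genes (−0.42, adjusted p = 0.0191), where 3.38% were called lower, and with voom on estimated reads (−0.41, adjusted p = 0.0232), where 2.72% were called lower. Over all settings tried the limma adjusted p ranged between 0.0191 and 0.767.

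Bcat2, the mitochondrial aminotransferase (chr7:45570153-45589711, plus strand), had 8.17 and 8.88 TPM in propionate libraries and 7.57, 8.65 and 6.97 TPM in chloride libraries. The groups overlapped, and the change was 0.13 ± 0.12 (95% interval −0.15 to 0.41, limma adjusted p = 0.657). The ratio of Bcat1 to Bcat2 within a library, which does not depend on how the library is scaled, was 1.70 and 1.79 with propionate, against 2.76, 2.24 and 2.86 with chloride. Both propionate ratios were below all 3 chloride ratios, with a log2 difference of −0.58. The two-sided exact permutation test gave p = 0.1, the smallest that 2 against 3 libraries allow, and 0.167 after adjustment over the 5 ratios compared.

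The 3 subunits particular to the dehydrogenase complex did not pass the test. Bckdha, the alpha subunit of the decarboxylating E1 component (chr7:25629946-25658981, minus strand), had 24.5 and 32.7 TPM with propionate and 32.5, 29.1 and 28.1 TPM with chloride. The propionate libraries held both its lowest and its highest value, and the change was −0.07 ± 0.13 (limma adjusted p = 0.843). Bckdhb, its beta partner (chr9:83925145-84124240, plus strand), had 7.37 and 7.16 TPM with propionate, against 5.79, 5.76 and 6.53 TPM with chloride. Both propionate libraries were above all chloride libraries, with a change of 0.24 ± 0.12 (95% interval −0.03 to 0.50, limma adjusted p = 0.356).

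Dbt, the E2 acyltransferase core (chr3:116513070-116549981, plus strand), had 10.9 and 13.3 TPM with propionate and 12.0, 10.6 and 11.7 TPM with chloride, a change of 0.07 ± 0.12 (limma adjusted p = 0.824). In the assembled enzyme E1 alpha and beta occur in equal number, yet Bckdha transcripts outnumbered those of Bckdhb in each library. That ratio was 3.33 and 4.57 with propionate and 5.60, 5.05 and 4.31 with chloride (exact permutation p = 0.3). Bckdha over Dbt was 2.25 and 2.45 with propionate and 2.70, 2.74 and 2.41 with chloride (exact permutation p = 0.3). Both subunit ratios overlapped between the groups.

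Control of the complex runs through Bckdk, the kinase that inactivates E1, and Ppm1k, the phosphatase that reactivates it. Bckdk had 14.5 and 16.1 TPM with propionate, against 18.9, 19.1 and 17.3 TPM with chloride (−0.26 ± 0.10, limma adjusted p = 0.264). Ppm1k had 11.9 and 12.5 TPM with propionate, against 10.4, 8.30 and 8.77 TPM with chloride (0.38 ± 0.12, limma adjusted p = 0.164). Neither passed the main test. The groups did not overlap for either gene, but 19.7% of all tested genes were apart and lower and 14.8% apart and higher. Ppm1k passed with voom on estimated reads (limma adjusted p = 0.0234), where 5% of all genes were called higher. The kinase to phosphatase ratio was 1.22 and 1.29 with propionate, against 1.83, 2.30 and 1.98 with chloride. It was lower in both propionate libraries, with a log2 difference of −0.69 (exact permutation p = 0.1, adjusted over the 5 ratios 0.167). Dld, the E3 subunit shared with other dehydrogenases, had 35.2 and 38.5 TPM with propionate and 43.2, 42.1 and 42.3 TPM with chloride (−0.20, limma adjusted p = 0.313).

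**Figure D2:**
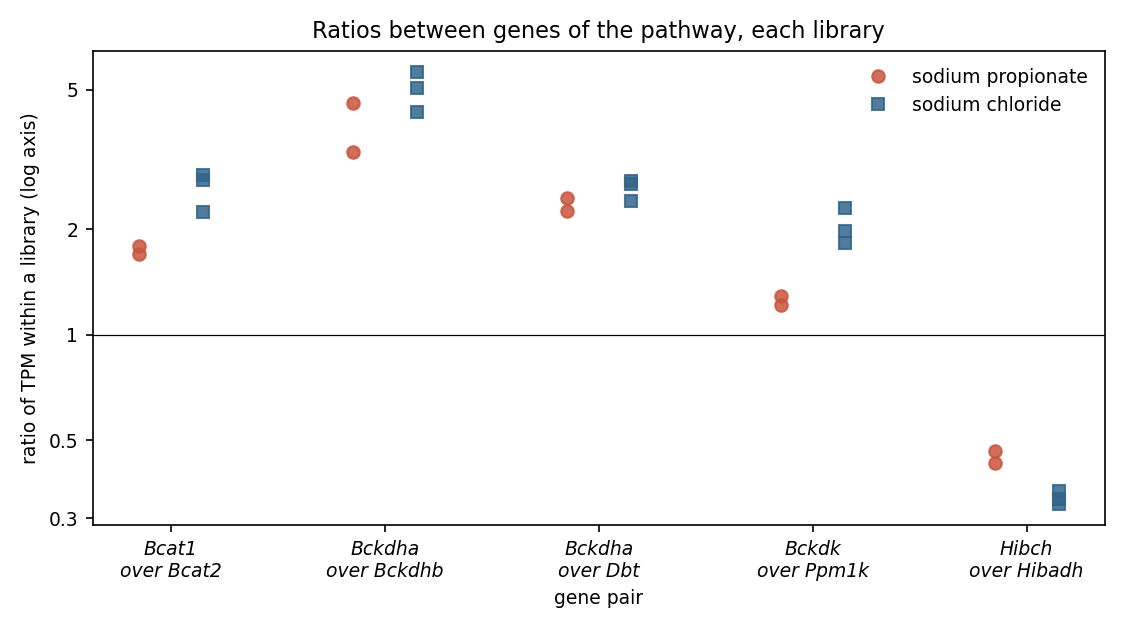
Ratio of TPM between pairs of genes within each library (log axis), with propionate libraries as circles left of chloride libraries as squares. Bcat1 over Bcat2, Bckdk over Ppm1k and Hibch over Hibadh do not overlap between groups, and the remaining pairs do. How often ratios of other gene pairs are apart in this way was not counted, and 34.6% of single tested genes were.

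Past the complex, Ivd, the isovaleryl-CoA dehydrogenase of the leucine branch (chr2:118861954-118882909, plus strand), had 17.7 and 20.1 TPM with propionate and 20.6, 22.2 and 19.0 TPM with chloride. Its groups overlapped, with a change of −0.12 ± 0.11 (limma adjusted p = 0.645). Echs1, the enoyl-CoA hydratase of the valine and isoleucine routes and of fatty acid oxidation (chr7:140105710-140116476, minus strand), had 48.1 and 51.0 TPM with propionate and 49.4, 52.2 and 47.3 TPM with chloride. The propionate values lay inside the chloride range, but its top, in library 2, includes 3.24 TPM of an assembled transcript described below. The interval of the difference was −0.21 to 0.21 (limma adjusted p = 0.995). Counting reference transcripts only, the change was 0.028.

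In the valine branch, Hibch, which releases hydroxyisobutyrate from its CoA ester (chr1:52844929-52920986, plus strand), had 20.5 and 25.03 TPM with propionate and 20.4, 19.7 and 18.3 TPM with chloride. Its lowest propionate library and highest chloride library nearly met, and the change was 0.21 ± 0.12 (95% interval −0.06 to 0.48, limma adjusted p = 0.407). Without propionate library 3 it was 0.07. Hibadh, the dehydrogenase of the next step (chr6:52546228-52640389, minus strand), had 47.4 and 53.8 TPM with propionate and 61.9, 57.7 and 50.9 TPM with chloride (−0.16 ± 0.11, limma adjusted p = 0.512). These neighbours in the route lay on opposite sides of 0. Hibch over Hibadh was 0.432 and 0.465 with propionate, against 0.330, 0.341 and 0.359 with chloride, higher by 0.39 on the log2 scale (exact permutation p = 0.1, adjusted 0.167). Aldh6a1, whose enzyme makes propionyl-CoA from methylmalonate semialdehyde (chr12:84430717-84451004, minus strand), had 14.7 and 14.5 TPM with propionate and 13.9, 14.7 and 13.4 TPM with chloride. The propionate values lay close to the upper end of the chloride range, with a change of 0.06 ± 0.10 (limma adjusted p = 0.828).

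The files also give coverage per exon, as StringTie divided it among transcripts. Each value sums only transcripts that list exactly that exon. It therefore moves with this division as well as with the reads along a gene. Coverage is scaled here so that its unit matches TPM, and the exon alternative was chosen after the data were seen. Of 107 exons of the 10 genes, 14 were apart and higher with propionate, 14 apart and lower, and 79 overlapped. Over 127273 exons of all tested genes, 27.3% were apart, 12% higher and 15.3% lower, so the members' exons together were near the background. Exons of 1 gene share its reads and are not independent of each other. Of the 11 exons of Bcat1, 6 were lower in both propionate libraries (15.3% of all exons were), and these were exons 6 to 11, the 3′ part of the transcript. Exons 1 to 5 overlapped. The last exon had 11.3 and 12.2 with propionate, against 18.7, 16.1 and 15.8 with chloride. Exon 5 had 17.7 and 27.3 with propionate and 32.4, 26.4 and 36.8 with chloride.

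For Bcat2, 5 of 11 exons were higher with propionate, where 12% of all exons were, and 1 was lower. Exons 7 to 10 were among the higher ones: exon 7 had 12.0 and 11.6 with propionate, against 7.71, 9.65 and 6.14 with chloride. Exon 5 had 5.16 and 5.24 with propionate, against 7.33, 9.73 and 6.70 with chloride. These exons of Bcat2 were noticed in the data, and the difference between them was not tested. Exon 1 of Bcat2 was also higher, and its value leaves out ENSMUST00000209569, which starts at another base. For Bckdhb 4 of 11 exons were higher and none lower, for Ivd 4 of 12 lower, and for Hibch 3 of 14 higher. The first exon is among the 4 of Bckdhb, and its value leaves out ENSMUST00000190637, whose first exon starts at another base. Dbt and Aldh6a1 each had 1 exon higher, and Bckdha, Echs1 and Hibadh each had 1 lower.

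**Figure D3:**
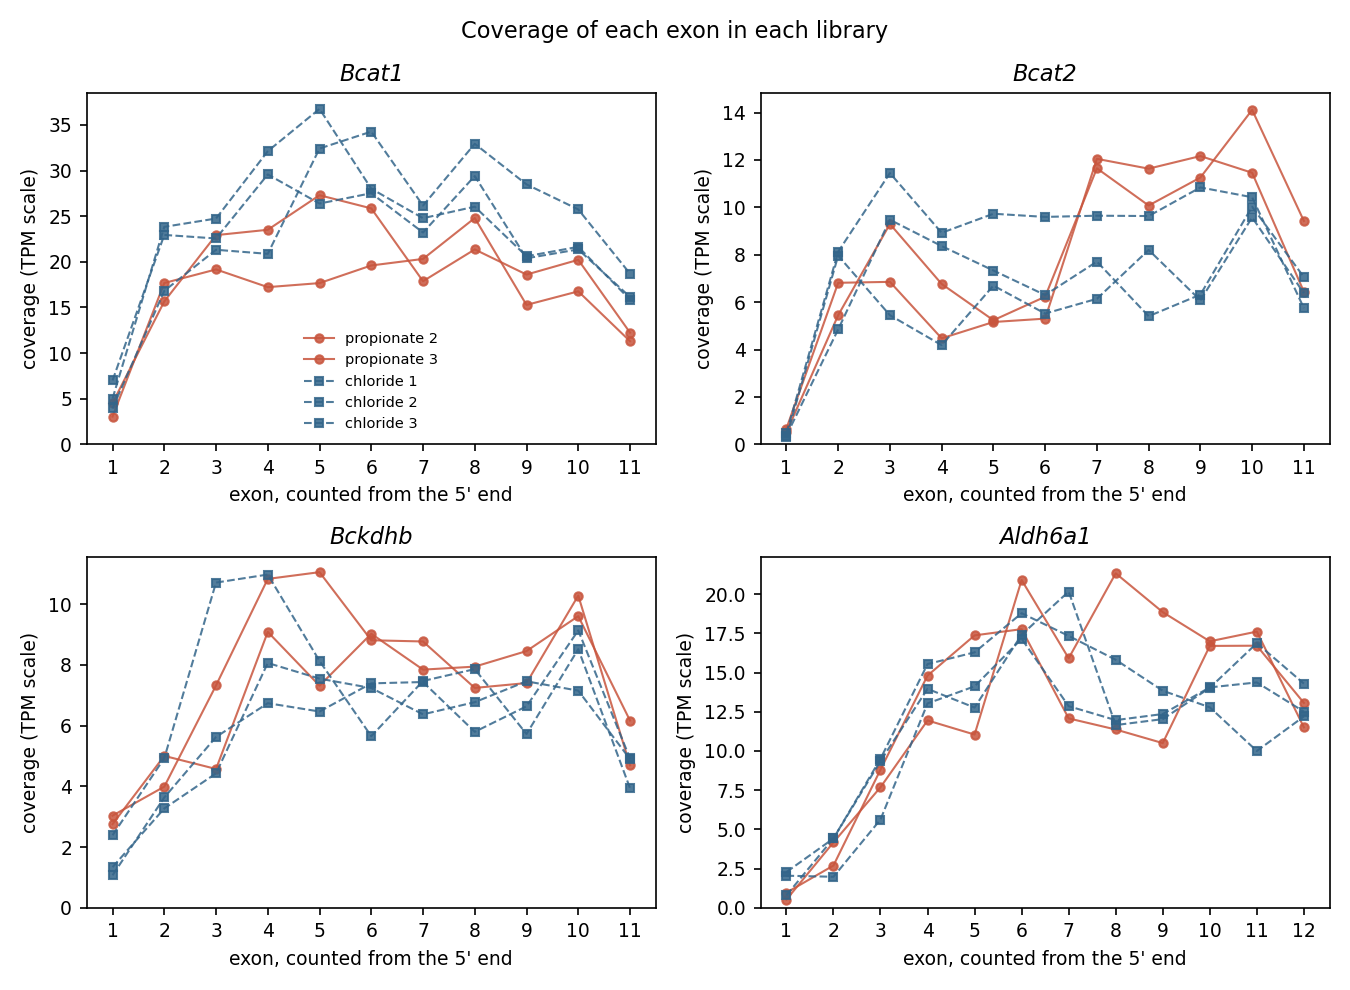
Coverage of each exon on the TPM scale, counted from the 5′ end, for Bcat1, Bcat2, Bckdhb and Aldh6a1, with propionate libraries as solid lines and chloride libraries as dashed lines. The Bcat1 propionate lines run below the chloride lines over exons 6 to 11, and coverage of exon 1 is low in each panel.

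Coverage of the first exons was compared between starts, with the same limit. The distal first exon of Bcat1 (chr6:145075889-145076184), which belongs to the protein-coding transcript ENSMUST00000111742, had 3.04 and 4.52 with propionate and 3.95, 7.002 and 5.02 with chloride. The first exon at the proximal RefSeq start (chr6:145048563-145048812) was at 0 in both propionate libraries and at 0, 0 and 0.183 in chloride libraries. In all 5 libraries the distal first exon therefore had the higher coverage. The first exon of the assembled Bcat1 transcript (chr6:145047440-145047853) had 0.503 and 0.787 with propionate and 0.542, 0.952 and 1.11 with chloride. It was listed by 3 transcripts. The annotated protein-coding transcripts ENSMUST00000123930 and ENSMUST00000149769 start at the same base, 145047853.

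StringTie nevertheless divided Bcat1 unevenly among transcripts. ENSMUST00000111742 held 47.8 and 70.9% of its TPM with propionate and 53.6, 86.5 and 58.8% with chloride. The assembled transcript, which starts inside the gene, held 45.7 and 23.7% with propionate and 41.4, 9.71 and 34.6% with chloride. The shares of both transcripts overlapped between the groups, whereas the summed Bcat1 TPM did not. With reference transcripts only, the Bcat1 change was −0.51 with an SE of 0.24 (limma adjusted p = 0.476).

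Aldh6a1 showed a like case. The transcript ENSMUST00000222641, annotated as a processed transcript and starting downstream, held between 81.6 and 94.9% of the gene's TPM, while the protein-coding ENSMUST00000085192 was listed at 0 in all 5 libraries. The downstream first exon particular to ENSMUST00000222641 (chr12:84448131-84448317) had coverage of 0.217 and 0 with propionate and 0, 0 and 0.424 with chloride. The upstream first exon, which the coding transcript shares (chr12:84450889-84451004), had 0.966 and 0.524 with propionate and 0.796, 2.28 and 2.05 with chloride. In each library the upstream exon was above the downstream one, so the transcript named by the estimate was not the one whose first exon was read most, and only the gene sum is used here. The 10 genes had 66 transcripts in all, 5 of them assembled, and 16 averaged at least 1 TPM.

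**Figure D4:**
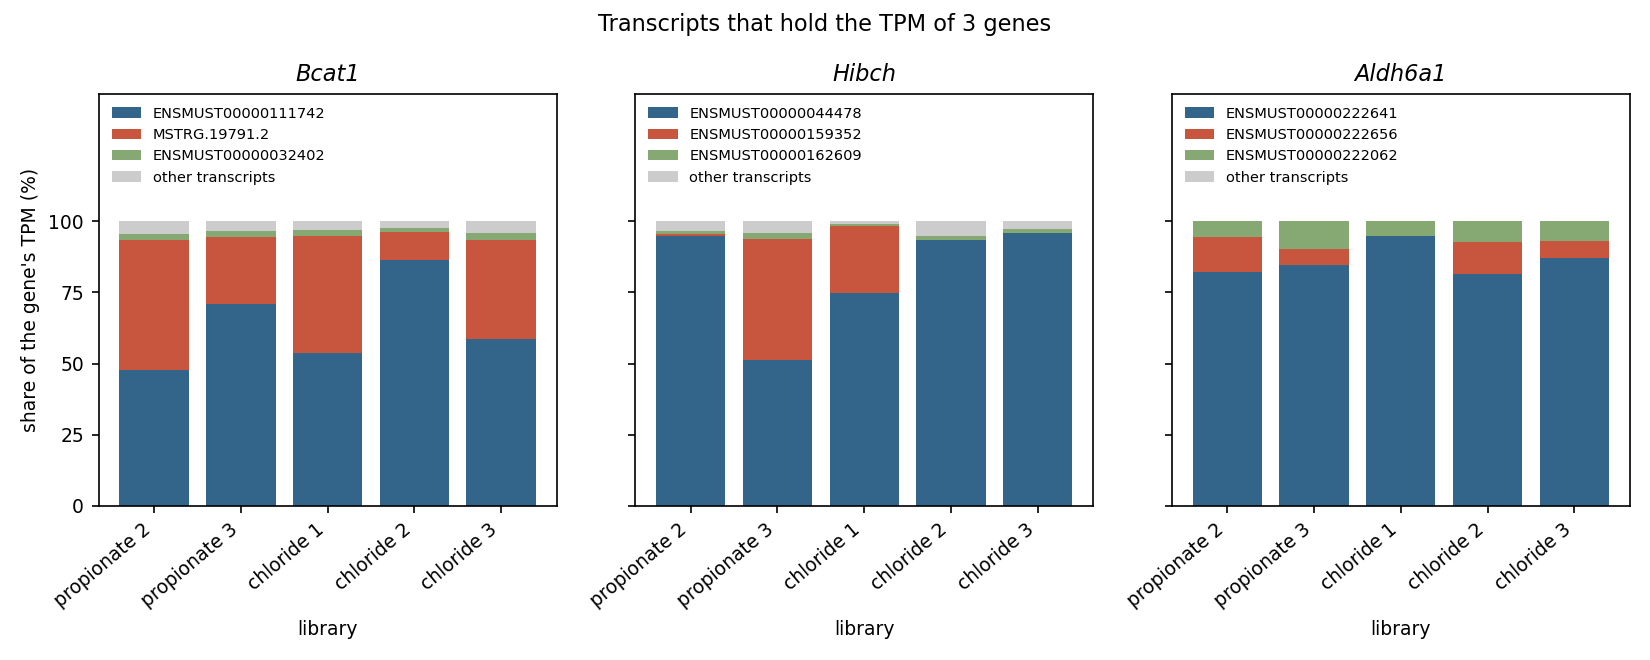
Share of each gene's TPM (%) held by its main transcripts in each library, for Bcat1, Hibch and Aldh6a1. The shares of Bcat1 and Hibch differ between libraries of the same group, while ENSMUST00000222641 holds most of Aldh6a1 in all 5.

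Overlapping genes could add reads, since no strand option was set. The antisense partners that overlap exons of Bcat1, Bcat2, Bckdha and Aldh6a1 were each at or under 0.598 TPM, and Paox, opposite Echs1, had 2.63 and 2.90 TPM with propionate and 2.15, 2.36 and 1.61 TPM with chloride. Gm24355, on the strand of Hibadh, had 0.0840 and 1.21 TPM with propionate and 0.161, 0.0295 and 0.0659 TPM with chloride. On the strand of Echs1, an assembled transcript joining it to its neighbour Fuom was given 3.24 TPM in chloride library 2 and listed at 0 in the other 4. Fuom itself had 11.1 and 13.01 TPM with propionate and 11.8, 6.24 and 12.99 TPM with chloride, its low value being in that same library.

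The rest of the pathway was described from a list of 32 other genes, of which 31 were tested and none was called, against the same 1.8%. Slc7a8, an exchanger of neutral amino acids, was listed at 0 in all libraries and not tested. The changes were above 0 for 14 genes and below 0 for 17, with a median of 0.00 (−0.03 over all genes), and the groups were apart for 6 higher and 6 lower, near the 14.8% and 19.7% of all tested genes. Ppm1k and Mcee were higher, and Bckdk and Psat1 lower, by unadjusted p under 0.05, 4 of 31 against 16.8% of all tested genes.

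Among the partners that consume or supply glutamate nitrogen, Psat1, the phosphoserine aminotransferase of serine synthesis, had 47.6 and 51.9 TPM with propionate, against 65.8, 62.9 and 66.8 TPM with chloride. Like Bcat1, it was lower in both propionate libraries and missed the main threshold (−0.38 ± 0.09, limma adjusted p = 0.0792). It passed with median-of-ratios scaling (limma adjusted p = 0.0377), over protein-coding genes (0.0141) and with voom (0.0124). In these settings 1.13, 3.38 and 2.72% of all tested genes were called lower. Gpt, an alanine aminotransferase, had 6.96 and 7.47 TPM with propionate and 6.47, 5.54 and 5.44 TPM with chloride. Gpt passed with voom alone (limma adjusted p = 0.0405), where 5% of all tested genes were called higher.

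In the propionyl-CoA steps, which the products of valine, isoleucine and added propionate all share, Mcee, the methylmalonyl-CoA epimerase, had 24.6 and 23.7 TPM with propionate, against 18.9, 19.6 and 19.5 TPM with chloride (0.31 ± 0.09, limma adjusted p = 0.146). The other genes of these steps, Pcca, Pccb and Mmut, overlapped between the groups. In the leucine branch, Mccc1, the alpha subunit of methylcrotonyl-CoA carboxylase, had 6.52 and 6.13 TPM with propionate and 7.42, 6.58 and 4.75 TPM with chloride (limma adjusted p = 0.949). Mccc2, its beta subunit, had 6.06 and 7.42 TPM with propionate, against 7.62, 7.76 and 8.83 TPM with chloride (limma adjusted p = 0.407). The Mccc1 groups overlapped, and both propionate libraries were below all chloride libraries for Mccc2.

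Of the isoleucine and valine genes the smallest p was that of Acadm, a medium-chain acyl-CoA dehydrogenase listed with these branches, which had 30.6 and 35.9 TPM with propionate and 30.1, 27.1 and 27.3 TPM with chloride (limma adjusted p = 0.335). Of the carriers it was that of Slc3a2, the heavy chain that partners the leucine carrier Slc7a5, with 31.7 and 33.2 TPM with propionate and 37.5, 37.4 and 32.4 TPM with chloride (limma adjusted p = 0.559). None of the 5 tested carriers was apart between the groups.

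**Figure D5:**
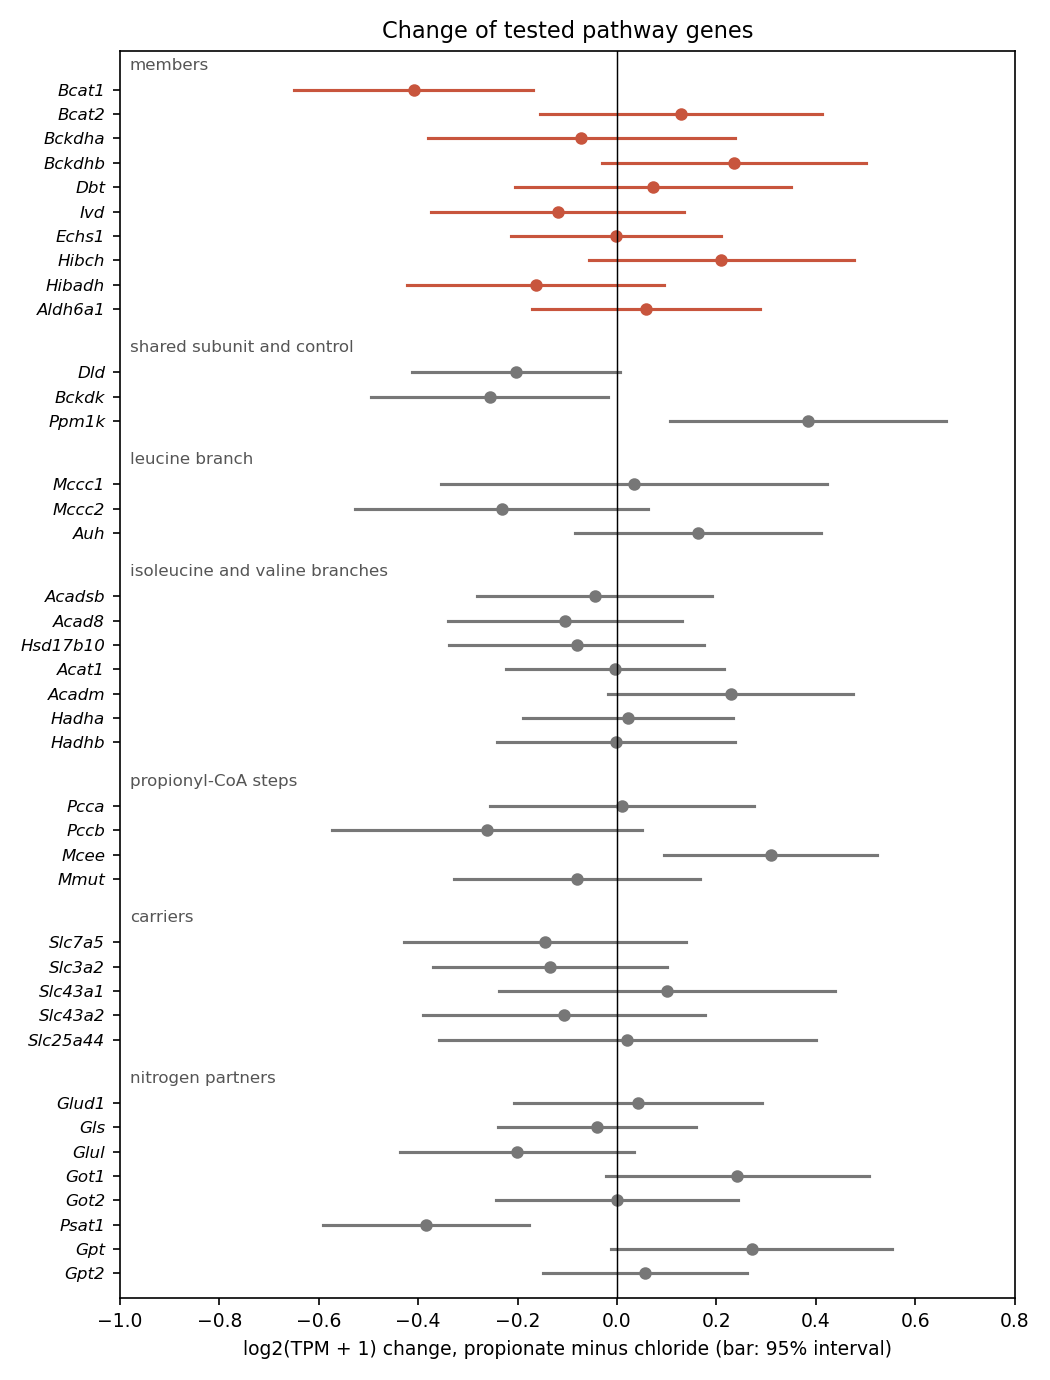
Change in log2(TPM + 1), propionate minus chloride, of tested genes by role, with bars for the 95% interval. The intervals of Bcat1, Bckdk and Psat1 lie below 0 and those of Ppm1k and Mcee above 0, and none of these genes passed the adjusted threshold.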

How the data were processed

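Transcript abundance was measured in 5 libraries of GL261 cells. Per the labels' protocols, total RNA was extracted with a column kit and made into TruSeq Stranded Total RNA libraries. Per the submitters' processing notes, bcl2fastq, fastp, HISAT2 and StringTie were used with build mm10. Per the file headers, StringTie 2.1.1 wrote each file with no strand option. The authors' deposited attributes are coverage, FPKM and TPM per transcript, held as text in another column, with no read counts. TPM covers small RNAs too, so a larger share of these lowers all other genes.

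Each file lists 157895 transcripts, 15415 of them assembled. Ensembl IDs were matched to GENCODE M21 genes (GRCm38), with an identical start for 99.81% of the matches. An assembled transcript was counted in the gene it overlaps most on the same strand. Genes averaging 1 TPM or more over the libraries were tested on log2(TPM + 1) with limma 3.58.1 (R 4.3.3; lmFit, eBayes with trend, two-sided), adjusted by Benjamini-Hochberg over all tested genes. Ratios were compared by exact permutation (scipy 1.17.1). Exon coverage was summed over the transcripts listing that exon. Alternatives were another pseudocount, other minimums, FPKM, other scalings, voom on aligned bases divided by 100, other uses of assembled transcripts, single transcripts, the replicate block and leaving out each library.

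The members, lists and ratios were chosen with earlier results of these data known. Named genes were all members, Dld, Bckdk and Ppm1k, and in each other group of the list the genes past the threshold or else the one with the smallest p. Gpt, Mccc1, Mccc2, Pcca, Pccb, Mmut and Slc7a8 were named after their values were seen. The counts include 1 gene of the list whose values are not reported here. Sequences are from RefSeq. A propionate library numbered 1 was not analysed here.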

Additional observations from a re-analysis of the deposited data

How the results depend on the processing

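Of the 10 members, Bcat1, Bcat2, Bckdhb, Ivd and Hibadh kept their direction under every alternative. Bcat1 gained a call under median-of-ratios scaling (−0.39), with TPM over protein-coding genes (−0.42) and with voom (−0.41), each adding 1 lower member. Of all tested genes 1.13, 3.38 and 2.72% were then called lower. Leaving out a library gave changes of −0.50 to −0.32 for Bcat1, 0.066 to 0.20 for Bcat2, −0.27 to 0.13 for Bckdha, 0.21 to 0.29 for Bckdhb, −0.062 to 0.21 for Dbt, −0.21 to −0.033 for Ivd, −0.042 to 0.039 for Echs1, 0.071 to 0.35 for Hibch, −0.25 to −0.073 for Hibadh and 0.029 to 0.092 for Aldh6a1, and no member or pathway gene was then called. Near 0, Echs1 turned positive under median-of-ratios scaling (0.021), with TPM over protein-coding genes (0.0028), with voom (0.00038), with reference transcripts only (0.028) and per transcript (0.038). Per transcript, Hibch was at −0.10 and Aldh6a1 at −0.0099. The cause of these turns was not tested.

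Of the 31 tested genes of the pathway list, 1 was lower under median-of-ratios scaling, against 1.13% of all tested genes. With TPM over protein-coding genes 1 was lower, against 3.38%. With voom 2 were higher, against 5%, and 1 was lower, against 2.72%. Over all genes, against 182 higher and 68 lower, the counts were 371 and 157 under median-of-ratios scaling, 629 and 405 with protein-coding TPM, 694 and 377 with voom, 5 and 6 with reference transcripts only, and 2 and 1 without a minimum. FPKM gave 118 lower and counting assembled transcripts in every overlapping gene gave 40 lower. Leaving out a library gave 8 to 123 higher and 7 to 45 lower, with 8 and 7 without propionate library 3. Deviations of same-numbered libraries from their group means correlated at −0.219 (number 2) and −0.192 (number 3). The deviations of the 2 propionate libraries mirror each other, so these values cannot settle whether replicate numbers pair the libraries. With the replicate block Bcat1 was at −0.38 (limma adjusted p = 0.302), and 264 genes were called higher and 102 lower, none of them a member. Only chloride has a library numbered 1, so that library adds nothing to the changes estimated with the block. The Bcat1 change with the block therefore equalled that without chloride library 1 (−0.38). With exon coverage, added after the data were seen, Bcat1 was at −0.40, Bckdhb at 0.23 and Hibch at 0.17. Echs1 was positive with exon coverage too, at 0.022, against −0.0019 in the main fit. With 2 against 3 libraries no ratio could reach an exact p under 0.1.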

Other observations

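Hibch, the valine branch hydrolase, was divided between a pair of protein-coding transcripts in a way that followed no group. ENSMUST00000044478 had 19.4 and 12.8 TPM with propionate and 15.2, 18.4 and 17.5 TPM with chloride. ENSMUST00000159352, with 12 exons against 14, had 0.172 and 10.6 TPM with propionate and 4.86, 0 and 0 TPM with chloride. Propionate library 3 and chloride library 1 therefore held nearly all of the shorter transcript. In both groups, the library with more of it had less of the longer one.

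Bcat2 and Bckdhb also have annotated downstream starts. The downstream first exon of Bcat2 (chr7:45570996-45571552) had coverage of 0.736 and 0.187 with propionate and 0.611, 0.0967 and 0.945 with chloride. Its upstream first exon (chr7:45570153-45570399) had 0.665 and 0.512 with propionate and 0.367, 0.473 and 0.294 with chloride. This value is that of ENSMUST00000033098 alone. It leaves out ENSMUST00000209569, which starts at 45570350, inside this exon, and held between 12.7 and 20.2% of Bcat2 TPM. For Bckdhb the upstream first exon (chr9:83925150-83925359) had 3.04 and 2.76 with propionate, against 1.34, 1.07 and 2.39 with chloride. The downstream one (chr9:83948781-83948915) had 0.431 and 0.672 with propionate and 1.01, 0.786 and 0.275 with chloride. As listed for ENSMUST00000034801 alone, the upstream Bckdhb exon was apart and higher with propionate. That value leaves out ENSMUST00000190637, which starts at 83925145. This transcript held 11.7 and 25.2% of Bckdhb TPM with propionate and 21.3, 21.8 and 23.3% with chloride. Coverage of the upstream Bcat2 and Bckdhb starts as a whole was therefore not compared. The downstream Bckdhb exon and the downstream Bcat2 exon overlapped.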
